A study of Mus musculus with 18 samples.

Results

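The effect of nicotinamide (NAM) was measured in mouse kidney tubular epithelial cells that were under transforming growth factor β (TGFβ). The comparison takes the 3 libraries of cells given TGFβ and NAM together (TGFβ+NAM) against the 3 libraries of cells given TGFβ without a supplement (TGFβ), 6 of the 18 libraries of the series, chosen by their titles. All genes were examined: of 55487 genes in the count table, 13469 passed the filter on low counts and were tested. The cells are im-TEC, a conditionally immortalized line carrying SV40 large T antigen, grown with interferon-γ and then, per the labels, moved to restrictive conditions without interferon-γ before seeding. All groups share that history, and all groups were treated for 48 h. TGFβ+NAM cells received TGFβ at 10 ng/mL and NAM at 1 mM, and TGFβ cells received TGFβ at 10 ng/mL. NAM cells received NAM at 1 mM alone, against control cells with neither. These 2 groups gave the NAM effect without TGFβ. Cells with TGFβ at 10 ng/mL and S-adenosyl methionine (SAM) at 0.5 mM, against cells with SAM at 0.5 mM alone, served only to define TGFβ-responsive genes in libraries outside the comparison. Each group had 3 libraries of the same line, and the labels do not say whether these came from separate cultures, so the p-values measure the spread between libraries, which may be technical.

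NAM is the amide form of vitamin B3. The enzyme Nampt starts its conversion to NAD, the cofactor that sirtuins and poly(ADP-ribose) polymerases consume, and these enzymes release NAM and can be inhibited by it. Nicotinamide N-methyltransferase (Nnmt), the enzyme the series is about, instead methylates NAM, with SAM as the methyl donor. TGFβ acts through SMAD transcription factors. In kidney tubule cells it is known for raising matrix and contractile genes and for lowering genes of the differentiated epithelium.

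The 6 libraries held between 4171170 and 6512282 reads assigned to genes. Each read comes from near the 3′ end of a transcript, so values are compared for a gene between groups and not between genes. Levels are given in CPM, the counts of a gene relative to all gene reads of its library after scaling. Within the TGFβ+NAM group, replicate 1 differed most: 225 of 4143 genes with at least 50 CPM (5.43%) lay more than 0.5 log2 units from the mean of the other 2 libraries, against 42 and 55 genes for replicates 2 and 3 and 7 to 45 genes in the TGFβ libraries. Reads outside genes made up 22.8% of this library, against 27.3% and 26.8% in TGFβ+NAM replicates 2 and 3 and 24.9% to 25.9% in the TGFβ libraries. The genes called are therefore given with and without it. Other values are from all libraries unless stated, and some medians of gene lists changed sign without it.

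Of the 11 defining markers of tubular epithelium, Pax8 averaged 189 ± 12.9 CPM in TGFβ+NAM and 186 ± 18.1 CPM in TGFβ cells (SD, n = 3 each), and Cdh16, Pax2, Lrp2 and Aqp1 were also present. Epcam, an epithelial adhesion molecule, had no read in any of the 6 libraries, and Cdh1, which encodes E-cadherin, had 5 reads in TGFβ+NAM and 7 in TGFβ cells. Krt18 had 9 reads in TGFβ+NAM and 27 in TGFβ cells, and Cubn had 11 and 9. The label of tubular cells was thus met by some of the 11 markers, Pax8 among them, and not by Epcam, Cdh1, Krt18 or Cubn. The summed level of the 11 markers ranged from 788 to 863 CPM in TGFβ+NAM and from 817 to 902 CPM in TGFβ libraries. Of 7 fibroblast markers, Pdgfra, Lum and Thy1 were at 0, and the list summed to 102 to 129 CPM in TGFβ+NAM, against 124 to 134 CPM in TGFβ libraries, nearly all of it Col1a1 and Col1a2. Of 8 immune markers, Adgre1, Cd3e and Tyrobp were among those at 0, and the list summed to 45.7 to 59.0 CPM in TGFβ+NAM, against 55.8 to 73.8 CPM in TGFβ libraries, mostly Csf1r. Of 5 endothelial markers, Pecam1, Cdh5, Kdr and Tek were at 0 in the 6 libraries. Of 5 podocyte markers, Nphs1 was at 0, and Synpo made up most of the 279 to 327 CPM in TGFβ+NAM, against 312 to 346 CPM in TGFβ libraries. Fewer cells of a type and less RNA per cell cannot be told apart in bulk libraries.

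Few genes were called for NAM in TGFβ-treated cells. With edgeR's quasi-likelihood test and Benjamini-Hochberg adjustment over all 13469 genes, 11 genes passed an adjusted p of 0.05 (0.0817% of those tested), of which 4 were higher and 7 lower in TGFβ+NAM. Lower were Adh7 (ENSMUSG00000055301), Npnt (ENSMUSG00000040998), S100g (ENSMUSG00000040808), Rbm47 (ENSMUSG00000070780), Lgals3 (ENSMUSG00000050335), Adora1 (ENSMUSG00000042429) and Sept4 (ENSMUSG00000020486). Higher were Egr1 (ENSMUSG00000038418), Txnip (ENSMUSG00000038393), Ccn1 (ENSMUSG00000028195) and Ccn2 (ENSMUSG00000019997). At an unadjusted p under 0.05, 418 genes were higher (3.10%) and 514 lower (3.82%), which is 932 of 13469 in all. The libraries of both groups did not overlap for 1593 genes (11.8%). The median log2 change over all genes was 0.00 and the median standard error of a gene 0.20. The 4 genes that rose did so by factors of 1.26 to 1.53. All 11 calls rest on a spread estimated from the 18 libraries of the series. With only the 6 compared libraries fitted in edgeR, 0 genes passed and 745 had an unadjusted p under 0.05. DESeq2 on the 18 libraries called 39, with adjustment over 9813 genes. The count was 3 without TGFβ replicate 2 and 5 without TGFβ replicate 3, all of them lower, and 6 without TGFβ replicate 1 or without TGFβ+NAM replicate 2, each time 2 higher and 4 lower.

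**Figure D1:**
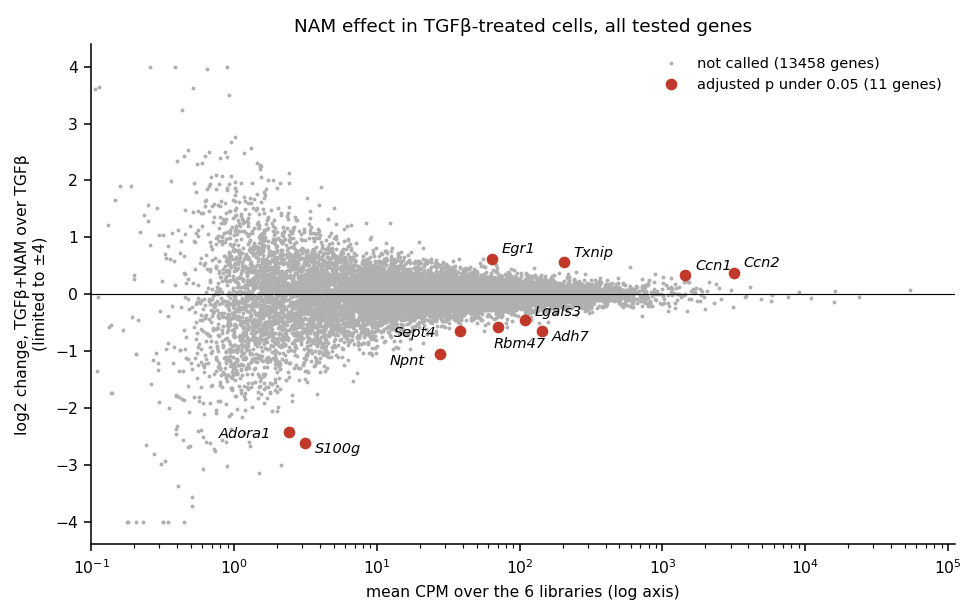
Log2 change of each tested gene in TGFβ+NAM over TGFβ cells (y, limited to ±4) against its mean CPM over the 6 libraries (x, log axis). Red points are the 11 genes with an adjusted p under 0.05. Ccn1 and Ccn2 lie at the high end of expression with small changes, and S100g and Adora1 at the low end with large ones.

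Among the genes that fell, Adh7 had the smallest p. It encodes a class IV alcohol dehydrogenase that oxidizes retinol and other alcohols. Adh7 was at 127, 110 and 99.0 CPM in TGFβ+NAM, against 166, 149 and 214 CPM in TGFβ cells (libraries are given in the order of their replicate numbers throughout). All TGFβ+NAM libraries lay below all TGFβ libraries, and the log2 change was -0.64 ± 0.10 (SE; adjusted p = 0.00138). Without TGFβ+NAM replicate 1 it was -0.74 ± 0.11 (adjusted p = 0.000156).

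Npnt encodes nephronectin, a basement membrane protein that binds integrin α8β1 and takes part in kidney development. Its level was 16.7, 15.7 and 22.1 CPM in the TGFβ+NAM libraries and 34.2, 35.8 and 42.7 CPM in the TGFβ libraries. The highest TGFβ+NAM library was thus well under the lowest TGFβ library, with a log2 change of -1.05 ± 0.17 (adjusted p = 0.00138). S100g, the vitamin D-dependent calcium-binding protein calbindin-D9k, was at 1.42, 0.801 and 0.359 CPM in TGFβ+NAM and at 6.74, 4.24 and 5.16 CPM in TGFβ cells. These are 15 reads over the TGFβ+NAM libraries and 88 over the TGFβ libraries, and the log2 change was -2.62 ± 0.43 (adjusted p = 0.00138). Adh7, Npnt and S100g passed in all 6 fits that each omitted a different library of the comparison, with an adjusted p of at most 0.0483 for Adh7, 0.0401 for Npnt and 0.0315 for S100g. They did not pass when only the 6 compared libraries were fitted, where the adjusted p was 0.136 for Adh7, 0.0677 for Npnt and 0.203 for S100g.

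The other 4 genes that fell passed in fewer of the fits that omitted a library. Rbm47, an RNA-binding protein of epithelial cells and a cofactor of RNA editing, was at 59.0, 55.4 and 55.6 CPM in TGFβ+NAM and 87.8, 95.5 and 68.3 CPM in TGFβ cells (log2 change -0.57 ± 0.11, adjusted p = 0.0238). Lgals3, which encodes the β-galactoside-binding lectin galectin-3, was at 84.2, 96.3 and 93.1 CPM in TGFβ+NAM and within 123 to 127 CPM in all TGFβ libraries (log2 change -0.46 ± 0.09, adjusted p = 0.0238). Sept4, a septin of the filament-forming GTPase family, was at 31.9, 31.6 and 25.7 CPM in TGFβ+NAM and 47.9, 57.5 and 33.2 CPM in TGFβ cells, so that TGFβ replicate 3 was close to the TGFβ+NAM libraries. Its log2 change was -0.65 ± 0.14 (adjusted p = 0.0354). Adora1, the adenosine A1 receptor, had 13 reads over the TGFβ+NAM libraries and 68 over the TGFβ libraries. It was at 0.886, 0.160 and 1.26 CPM in TGFβ+NAM, against 1.85, 6.599 and 3.69 CPM in TGFβ cells, a log2 change of -2.42 ± 0.49 (adjusted p = 0.0239). With 1 of the 6 libraries left out, Adora1 passed in 3 of 6 fits, Rbm47 and Sept4 in 2 each and Lgals3 in none. S100g and Adora1 averaged under 5 CPM over the 6 compared libraries and so lay outside the rule by which genes were chosen for description. They are given because they were among the 11 called, after their values were seen.

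Among the genes that rose, Egr1 and Txnip had the largest changes. Egr1, an immediate early zinc finger transcription factor, was at 84.0, 78.8 and 69.4 CPM in TGFβ+NAM and 57.3, 50.1 and 43.2 CPM in TGFβ cells. The groups did not overlap, and the log2 change was 0.62 ± 0.11 (adjusted p = 0.00752). Txnip, the thioredoxin-interacting protein that also restrains glucose uptake, was at 274, 233 and 225 CPM in TGFβ+NAM and 188, 173 and 134 CPM in TGFβ cells (log2 change 0.56 ± 0.11, adjusted p = 0.0238). Its TGFβ+NAM replicate 1 was the highest library, and without it the gene no longer passed (log2 change 0.47 ± 0.11, adjusted p = 0.0948).

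Ccn1 and Ccn2 encode secreted matricellular proteins, Cyr61 and connective tissue growth factor, that are targets of both SMAD and YAP signaling. Ccn2 was at 3374, 3708 and 3635 CPM in TGFβ+NAM and 2776, 2804 and 2651 CPM in TGFβ cells. Ccn1 was at 1666, 1582 and 1591 CPM in TGFβ+NAM and 1318, 1295 and 1238 CPM in TGFβ cells. For both genes the lowest TGFβ+NAM library was above the highest TGFβ library, by a margin larger than the range of the TGFβ libraries. The log2 changes were 0.38 ± 0.08 for Ccn2 and 0.33 ± 0.07 for Ccn1, each with an adjusted p of 0.0422. Without TGFβ+NAM replicate 1, Ccn2 had an adjusted p of 0.0150 and Ccn1 of 0.0979. Egr1 passed in 4 of the 6 fits with 1 library left out, Txnip in 3, Ccn2 in 1 and Ccn1 in none.

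**Figure D2:**
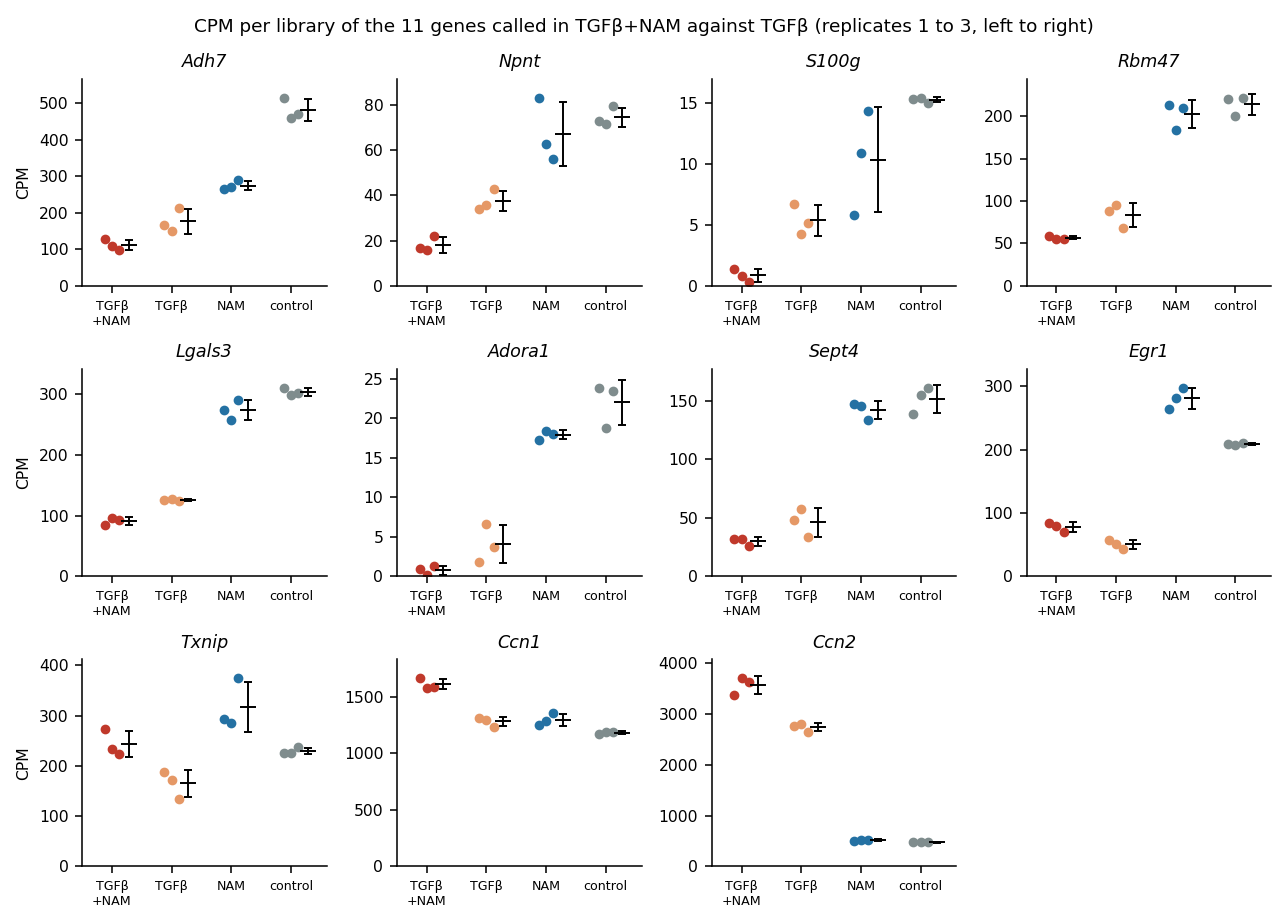
CPM (y, from 0) of the 11 called genes in each library of TGFβ+NAM, TGFβ, NAM and control cells (x), with mean and SD as black bars. In every panel the 3 TGFβ+NAM points lie on 1 side of the 3 TGFβ points; Adh7 is also lower in NAM than in control cells.

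The 250 bases before the transcript start of Adh7 and of Ccn1 are shown because these genes were called in opposite directions. Both are from RefSeq (GRCm38.p6), 5′ to 3′ on the gene's strand, Adh7 at chr3:138217523-138217772 on the plus strand and Ccn1 at chr3:145649986-145650235 on the minus strand. Capitals mark a match to the AP-1 motif TGACTCA in Adh7 and to the TEAD motif GGAATG in Ccn1, in each case on the reverse strand.
Adh7: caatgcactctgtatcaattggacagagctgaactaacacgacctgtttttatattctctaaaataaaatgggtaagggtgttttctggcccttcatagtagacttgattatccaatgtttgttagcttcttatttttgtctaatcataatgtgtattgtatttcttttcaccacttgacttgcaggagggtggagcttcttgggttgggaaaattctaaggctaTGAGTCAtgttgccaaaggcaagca
Ccn1: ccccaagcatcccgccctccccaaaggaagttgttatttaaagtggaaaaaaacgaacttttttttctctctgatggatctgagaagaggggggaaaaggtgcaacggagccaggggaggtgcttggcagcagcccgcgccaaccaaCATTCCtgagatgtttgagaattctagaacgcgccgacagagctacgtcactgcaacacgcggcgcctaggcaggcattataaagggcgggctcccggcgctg
Searched on both strands in such windows were GGAATG of TEAD factors, the CArG box of serum response factor, TGACTCA of AP-1, CACGTG of E-box factors, TGACNNNGC of NRF2 and AGGTCA of nuclear receptors, 6 motifs in all. In Adh7, TGACTCA lay 25 to 19 bases before the start, and the other 5 motifs had no match. In Ccn1, GGAATG lay 103 to 98 bases and TGACNNNGC 62 to 54 bases before the start, with no overlap between them. Of 32851 windows of the same length, 4.46% held TGACTCA, 12.6% GGAATG and 10.2% TGACNNNGC. The matches describe the letters only.

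Without TGFβ+NAM replicate 1, 14 of 13847 genes passed (0.101%), 3 higher and 11 lower, and 8 of them were among the 11 called with all libraries. Lost were Txnip, Lgals3 (adjusted p = 0.102) and Ccn1. Added were Ccnd1, Lgals1, Spp1, Gstm1 and Bmp4 among the lower genes and Mir22hg among the higher. Ccnd1 encodes cyclin D1, which drives entry into the cell cycle. It was at 118, 86.2 and 101 CPM in TGFβ+NAM and 144, 135 and 140 CPM in TGFβ cells, and its log2 change was -0.58 ± 0.10 without the library (adjusted p = 0.00545) and -0.46 ± 0.10 with it (adjusted p = 0.0557). Lgals1, galectin-1, was at 722, 590 and 554 CPM in TGFβ+NAM, against 772, 719 and 956 CPM in TGFβ cells, so that replicate 1 overlapped with the TGFβ libraries. Spp1, the secreted phosphoprotein osteopontin that injured tubules express, was at 318 CPM in TGFβ+NAM replicate 1 and at 227 and 226 CPM in replicates 2 and 3, against 311, 302 and 334 CPM in TGFβ cells. The log2 change of Spp1 was -0.48 ± 0.09 without replicate 1 (adjusted p = 0.0123) and -0.30 ± 0.10 with it (adjusted p = 0.440). Bmp4, a ligand of the BMP branch, was at 127, 106 and 107 CPM in TGFβ+NAM and 180, 141 and 163 CPM in TGFβ cells, with adjusted p-values of 0.0254 without and 0.0928 with replicate 1. Gstm1, a glutathione transferase, had log2 changes of -0.65 (adjusted p = 0.0189) and -0.44 (adjusted p = 0.342), and Mir22hg, the host transcript of a microRNA, of 0.70 (adjusted p = 0.0189) and 0.55 (adjusted p = 0.129).

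The deviation of TGFβ+NAM replicate 1 from the other libraries of its group was ranked only for genes averaging 50 CPM or more there. Npnt, S100g, Adora1 and Sept4 lay under that level, so the ranking says nothing about them. Of the other called genes, Txnip, Lgals3 and Ccn1 did not pass without replicate 1. The 20 genes in which replicate 1 differed most, 10 each way, held none of these other called genes. They are too few to show whether a call depends on that library. At the low end was Pabpc1, the cytoplasmic poly(A)-binding protein, with 675 CPM in replicate 1, 1627 and 1553 CPM in replicates 2 and 3 and a mean of 1194 CPM in TGFβ cells. Dnajc7, Calcoco1, Snrpd3 and Slc38a10 followed, each with a log2 difference between -1.22 and -1.06. At the high end were Txnl4a, Ccng2, Arf3, Rcc2 and Calu, with log2 differences between 0.78 and 0.87, and 3 ribosomal protein pseudogenes, whose reads are uncertain because near-identical copies share them. NAM replicate 3 deviated in the same direction from the other NAM libraries in all 20 of these genes, the 10 lowest and 10 highest. For Pabpc1 its log2 difference was -0.93 and for Calu 0.71. Across 4168 genes with at least 50 CPM the deviations of both libraries from their group means had a correlation of 0.61, and across all 13469 tested genes of 0.17, descriptions over genes that share libraries. TGFβ+SAM replicate 3 also deviated with TGFβ+NAM replicate 1, with correlations of 0.40 and 0.10 over the same sets of genes.

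In cells without TGFβ, NAM against control called 1 gene, Adh7 (0.00742% of 13469), and 722 genes had an unadjusted p under 0.05. Adh7 averaged 274 ± 12.9 CPM in NAM and 481 ± 29.8 CPM in control cells (SD, n = 3 each), a log2 change of -0.81 ± 0.10 (adjusted p = 5.16e-06). Its change with TGFβ was thus of the same sign, and the difference between both changes was 0.17 ± 0.14 log2 units (unadjusted p = 0.251, adjusted p = 1). These 2 comparisons share no library. Of the 11 genes called with TGFβ, 11 had the same sign in NAM against control. Among 4180 genes with at least 50 CPM this share was 63.5%, or 55.2% without TGFβ+NAM replicate 1 and NAM replicate 3. That set leaves out genes of low expression such as S100g, so it is unlike the set from which the 11 were called. The share over all 13469 tested genes is not given. The count of 11, from all libraries, thus has no like share beside it and is a description only. Egr1 averaged 281 ± 16.6 CPM in NAM and 209 ± 1.23 CPM in control cells, with a log2 change of 0.43 ± 0.10 (unadjusted p = 8.57e-05, adjusted p = 0.206). Txnip averaged 317 ± 49.5 CPM in NAM and 229 ± 6.46 CPM in control cells, a log2 change of 0.47 ± 0.11 (unadjusted p = 9.87e-05, adjusted p = 0.206). Both values missed the threshold, and both were close in size to the changes under TGFβ.

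The interaction, the NAM change with TGFβ minus the NAM change without it, called no gene with edgeR (0%) or with DESeq2. An unadjusted p under 0.05 was reached by 462 genes with edgeR and by 512 with DESeq2. Of the 11 genes, 7 had an unadjusted interaction p under 0.05, a count that the choice of genes on 6 of the same libraries favours. For Npnt, NAM and control cells averaged 67.3 ± 14.2 and 74.7 ± 4.16 CPM, and the interaction was -0.90 ± 0.22 log2 units (unadjusted p = 0.000236, adjusted p = 1). For S100g, NAM cells had 5.80, 10.9 and 14.4 CPM and control cells 15.4, 15.4 and 15.03 CPM, and the interaction was -2.06 ± 0.51 (unadjusted p = 0.000252, adjusted p = 1). Rbm47, Sept4, Adora1, Lgals3 and Ccn2 had unadjusted interaction p-values between 0.000621 and 0.0311. A difference in the NAM effect between cells with and without TGFβ was not detectable for any gene after adjustment.

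**Figure D3:**
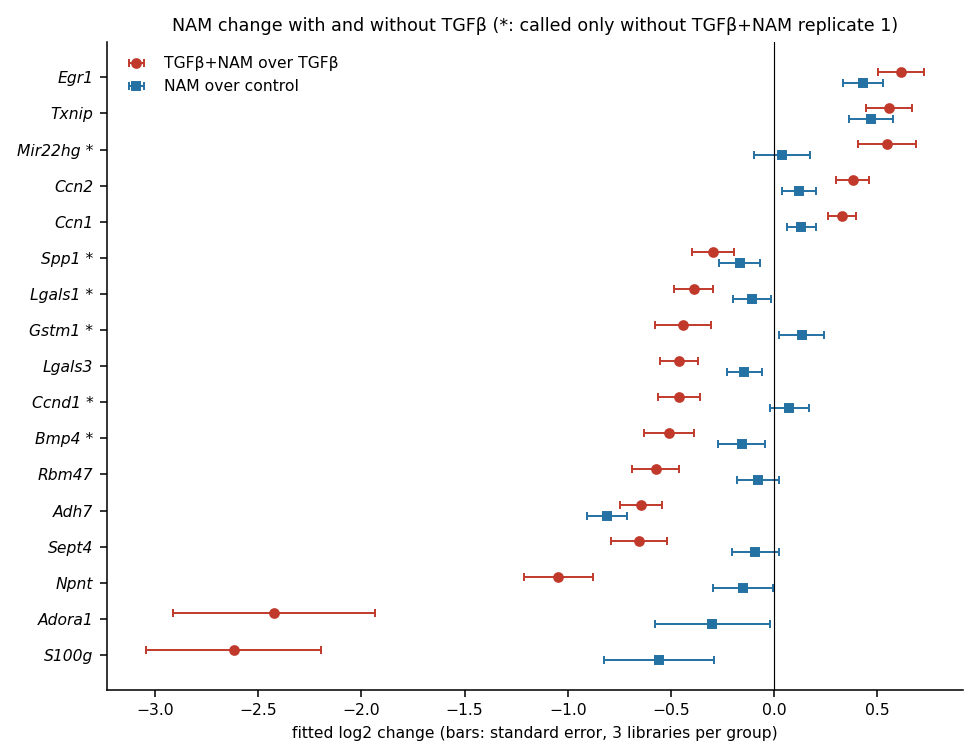
Fitted log2 change with SE bars of the 17 genes called with or without TGFβ+NAM replicate 1 (y, asterisks mark the 6 called only without it). Red circles are TGFβ+NAM over TGFβ and blue squares NAM over control cells. Adh7, Egr1 and Txnip have similar values in both, whereas the NAM over control values of Npnt, Adora1, S100g, Rbm47 and Sept4 lie nearer to 0.

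The enzymes that handle NAM and SAM did not pass. Nnmt was at 31.9, 26.4 and 28.7 CPM in TGFβ+NAM and 29.0, 35.7 and 28.5 CPM in TGFβ cells, overlapping groups with a log2 change of -0.10 ± 0.17 (adjusted p = 0.941). Its estimate crossed to 0.01 when TGFβ replicate 2 was left out. Of 21 genes of NAD synthesis and salvage, 11 were tested, 0 passed and 0 had an unadjusted p under 0.05. Nampt was at 78.2, 79.5 and 80.0 CPM in TGFβ+NAM and 72.5, 94.4 and 75.4 CPM in TGFβ cells (log2 change -0.03 ± 0.11, and 0.10 without TGFβ replicate 2). Of 27 NAD consumers and genes of NAM methylation, 23 were tested and 0 had an unadjusted p under 0.05. Sirt1, a sirtuin deacetylase, had a log2 difference of 0.35 ± 0.30, and Tnks2, a tankyrase, of 0.16 ± 0.09. Of 25 methionine cycle genes 20 were tested and 0 passed. Mat2a, which makes SAM from methionine, was at 308, 285 and 303 CPM in TGFβ+NAM and 267, 278 and 271 CPM in TGFβ cells (log2 change 0.13 ± 0.09, adjusted p = 0.800), and Ahcy, which removes the product of methyl transfer, averaged near 5 CPM with overlapping groups (log2 change -0.39 ± 0.37). Mat2b, the regulatory partner of Mat2a, had a log2 difference of 0.38 and Gamt, a SAM-dependent methyltransferase of creatine synthesis, of -0.74, with unadjusted p-values of 0.00877 and 0.0274. Of 35 histone, DNA and RNA methyltransferases 35 were tested and 0 passed, with a median log2 change of -0.01.

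Of the TGFβ target, YAP target, contractile and matrix lists, only the first 2 held called genes with all libraries, the matricellular genes Ccn1 and Ccn2. Of 22 tested TGFβ and SMAD targets 2 rose, Ccn1 and Ccn2, and 0 fell, with a median log2 change of 0.11 beside 0.00 over all genes. The same 2 genes were the ones called among 17 YAP targets, of which 15 had a positive sign and the median was 0.18. Over all 13469 tested genes 4 were called higher and 50.1% were positive, the share to set beside the sign counts of each list. Without TGFβ+NAM replicate 1 the median of the YAP targets was 0.15, with 1 gene called, and that of the TGFβ and SMAD targets 0.06. Of 26 contractile and mesenchymal genes 0 passed, 19 were positive and the median was 0.13; 5 had an unadjusted p under 0.05, all higher in TGFβ+NAM, beside 3.10% of all genes. Acta2, smooth muscle α-actin, was at 1323, 1145 and 1303 CPM in TGFβ+NAM and 996, 1013 and 1091 CPM in TGFβ cells (log2 change 0.28 ± 0.09, adjusted p = 0.388). Acta1, Myh9 and S100a4, which encode skeletal muscle actin, non-muscle myosin heavy chain and a calcium-binding protein of motile cells, had log2 differences of 0.38, 0.22 and 0.28.

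Of 33 tested matrix genes 0 passed with all libraries and 1, Spp1, without TGFβ+NAM replicate 1. With all libraries 6 had an unadjusted p under 0.05 in the higher and 5 in the lower direction, beside 3.10% and 3.82% of all genes, and the median was -0.06. Without that replicate the median was 0.004. The groups did not overlap for 7 matrix genes that were higher and 5 that were lower in TGFβ+NAM, beside 11.8% of all genes in both directions together. Postn, periostin, was at 219, 224 and 207 CPM in TGFβ+NAM and 272, 273 and 296 CPM in TGFβ cells, without overlap (log2 change -0.37 ± 0.09, adjusted p = 0.117). Col1a1, a chain of collagen I, was at 99.8, 72.0 and 79.3 CPM in TGFβ+NAM and 111, 106 and 111 CPM in TGFβ cells (log2 change -0.39 ± 0.15, adjusted p = 0.555). Col1a2, the other chain of collagen I, had a log2 difference of the opposite sign, 0.56 ± 0.25 (adjusted p = 0.627). Fn1, fibronectin, was at 1320, 1273 and 1297 CPM in TGFβ+NAM and 1127, 1166 and 1144 CPM in TGFβ cells (log2 change 0.18 ± 0.07, adjusted p = 0.559), and Tnc, tenascin C, had a log2 difference of 0.26 ± 0.08 (adjusted p = 0.335). Postn, Col1a1, Fn1 and Tnc were among the matrix genes without overlap between groups, and did not pass. Of 23 tested matrix proteases and inhibitors 0 passed; Mmp2, which degrades collagen IV and gelatin, had the smallest p among them, with a log2 difference of 0.31. Of 16 integrins and laminins 0 passed, with a median of -0.05.

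Of 18 tested genes of retinoid and alcohol metabolism 1 fell, Adh7, and 5 had an unadjusted p under 0.05, all lower in TGFβ+NAM, beside 3.82% of all genes. Dhrs3, which reduces retinaldehyde to retinol, was at 98.2, 94.1 and 95.8 CPM in TGFβ+NAM and 117, 134 and 129 CPM in TGFβ cells (log2 change -0.40 ± 0.10, adjusted p = 0.0955). Aldh2, the mitochondrial aldehyde dehydrogenase, was at 45.4, 74.5 and 78.0 CPM in TGFβ+NAM and 103, 101 and 77.1 CPM in TGFβ cells. Rarg, a retinoic acid receptor, was at 39.4, 58.2 and 70.7 CPM in TGFβ+NAM and 83.6, 76.2 and 65.8 CPM in TGFβ cells. In both Aldh2 and Rarg the lowest value was TGFβ+NAM replicate 1 and the groups overlapped. The median of the list was -0.03 with all libraries and -0.14 without that replicate.

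Of 33 tested immediate early and heat shock genes 1 rose, Egr1, and at an unadjusted p under 0.05 there were 5 higher and 1 lower, beside 3.10% and 3.82% of all genes. The median was 0.08 with all libraries and 0.01 without TGFβ+NAM replicate 1, where 5 were higher and 2 lower at that p. Junb, a subunit of AP-1, was at 154, 145 and 171 CPM in TGFβ+NAM and 122, 133 and 116 CPM in TGFβ cells (log2 change 0.33 ± 0.10, adjusted p = 0.351). Ier5, an immediate early gene, was at 290, 315 and 318 CPM in TGFβ+NAM and 265, 251 and 264 CPM in TGFβ cells (log2 change 0.24 ± 0.08, adjusted p = 0.415). Both genes had no overlap between groups and did not pass.

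Of 38 tested replication and mitosis genes 0 passed, 26 had a negative sign and the median was -0.07; 6 had an unadjusted p under 0.05, all lower in TGFβ+NAM, beside 3.82% of all genes. Ube2c, a ubiquitin-conjugating enzyme of mitotic exit, was at 104, 89.3 and 103 CPM in TGFβ+NAM and 139, 122 and 110 CPM in TGFβ cells, and Ccne2, cyclin E2, at 52.7, 88.9 and 78.2 CPM in TGFβ+NAM and 81.4, 103 and 122 CPM in TGFβ cells. Of 19 senescence genes 0 passed with all libraries and 1, Ccnd1, without TGFβ+NAM replicate 1. Their median was -0.10 with all libraries and 0.02 without that replicate. At an unadjusted p under 0.05 with all libraries, Cdkn1a was higher and Ccnd1 and Cdkn1b were lower. The log2 difference of Cdkn1b was -0.22. Cdkn1a, the cell cycle inhibitor p21, was at 1822, 2621 and 2438 CPM in TGFβ+NAM and 1962, 2138 and 1804 CPM in TGFβ cells (log2 change 0.22 ± 0.10, adjusted p = 0.650). Replicate 1 was within the TGFβ range for Cdkn1a and replicates 2 and 3 were above it; without replicate 1 the log2 change was 0.36 (adjusted p = 0.102). Of 30 p53 targets 0 passed and 22 were positive, with a median of 0.10. Of 20 genes of the senescence-associated secretion 0 passed; Csf1, a growth factor of macrophages, was at 921, 831 and 879 CPM in TGFβ+NAM and 757, 750 and 715 CPM in TGFβ cells (log2 change 0.24 ± 0.08, adjusted p = 0.357).

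Of 48 tested interferon response genes 0 passed, 33 were negative and the median was -0.06. Isg15, a ubiquitin-like interferon effector, was at 714, 1133 and 1114 CPM in TGFβ+NAM and 1108, 1212 and 1303 CPM in TGFβ cells, with replicate 1 alone far below (log2 change -0.29 ± 0.14 with it and -0.10 without). Of 18 genes of MHC class I presentation 0 passed and 14 were negative, with a median of -0.10. Psmb10, a subunit of the immunoproteasome, was at 50.5, 45.0 and 40.4 CPM in TGFβ+NAM and 61.7, 67.7 and 56.0 CPM in TGFβ cells (log2 change -0.45 ± 0.13, adjusted p = 0.319). Of 20 NF-κB inflammation genes 0 passed. Of 36 NRF2 and glutathione genes 0 passed with all libraries and 1, Gstm1, without TGFβ+NAM replicate 1; Gclc and Gclm, the subunits of the enzyme that starts glutathione synthesis, had log2 differences of -0.33 and -0.25.

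Energy metabolism genes did not pass. Of 46 nuclear-encoded respiratory chain genes, 7 mitochondrially encoded ones and 26 genes of glycolysis and hypoxia, 0 passed, with medians of 0.04, -0.08 and -0.04. Without TGFβ+NAM replicate 1 these medians were -0.04, -0.11 and -0.03. Of 23 fatty acid oxidation genes 0 passed. Ppargc1a, the coactivator of mitochondrial biogenesis, was at 13.3, 12.8 and 14.9 CPM in TGFβ+NAM and 21.4, 20.4 and 22.4 CPM in TGFβ cells, narrow groups without overlap (log2 change -0.64 ± 0.16, adjusted p = 0.134). Of 35 cholesterol and fatty acid synthesis genes 0 passed; Elovl6, a fatty acid elongase, was at 19.7, 25.5 and 14.5 CPM in TGFβ+NAM and 32.5, 32.8 and 31.4 CPM in TGFβ cells (log2 change -0.69 ± 0.16, adjusted p = 0.0704). The lists of polyamines, BMP and ID genes, epithelial junctions and keratins, tubule identity and transport, tubular injury, ATF4 stress and serine synthesis, unfolded protein response, aryl hydrocarbon receptor genes, and lysosome and autophagy had 0 called with all libraries, and medians between -0.23 and 0.08. Without TGFβ+NAM replicate 1, 1 gene passed among BMP and ID genes, Bmp4, and 1 in tubular injury, Spp1.

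**Figure D4:**
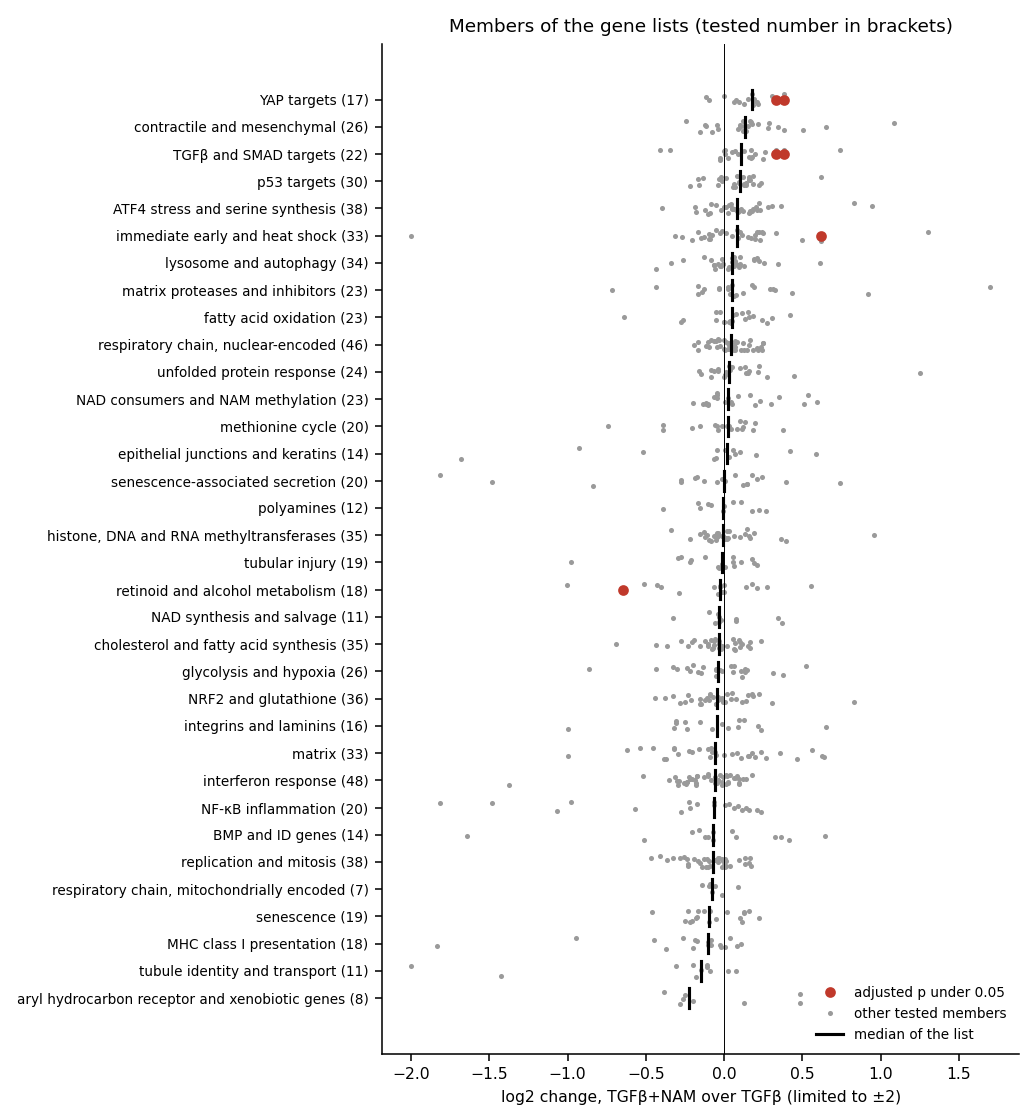
Log2 change in TGFβ+NAM over TGFβ cells (x, limited to ±2) of every tested member of 34 gene lists (y, tested number in brackets), with the median as a black bar and called genes in red. Called genes stand in 4 lists, Ccn1 and Ccn2 in 2 of them, and no median exceeds 0.23 in size.

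Further genes were close to the threshold, or had the smallest p-values in their direction, and did not pass. Sash1, a scaffold protein of signaling, was at 15.2, 13.0 and 16.9 CPM in TGFβ+NAM and 27.6, 30.5 and 23.3 CPM in TGFβ cells (log2 change -0.86 ± 0.19, adjusted p = 0.0557). Slc4a4, the sodium bicarbonate cotransporter of the proximal tubule, was at 66.7, 62.0 and 68.5 CPM in TGFβ+NAM and 91.5, 105 and 96.1 CPM in TGFβ cells (log2 change -0.57 ± 0.13, adjusted p = 0.0560). Irs2, the insulin receptor substrate, and Chdh, the choline dehydrogenase of the methyl donor pathway, had log2 differences of -0.54 and -0.79. In the higher direction Fkbp14, a prolyl isomerase of the endoplasmic reticulum that acts on collagen, was at 20.6, 14.7 and 16.9 CPM in TGFβ+NAM and 9.60, 7.07 and 4.91 CPM in TGFβ cells (log2 change 1.25 ± 0.29, adjusted p = 0.0867). Fmod, fibromodulin, a proteoglycan of collagen fibrils, was at 154, 138 and 145 CPM in TGFβ+NAM and 118, 89.9 and 111 CPM in TGFβ cells (log2 change 0.46 ± 0.11, adjusted p = 0.104). Ccn4, a further CCN family member, was at 1218, 1098 and 1034 CPM in TGFβ+NAM and 889, 888 and 940 CPM in TGFβ cells (log2 change 0.30 ± 0.08, adjusted p = 0.210). Cdh16, the kidney-specific cadherin, was at 86.3, 67.5 and 70.1 CPM in TGFβ+NAM and 58.0, 56.7 and 51.8 CPM in TGFβ cells (log2 change 0.42 ± 0.12, adjusted p = 0.268). All of these had no overlap between groups. No overlap was a condition for genes filled in by smallest p, and 11.8% of all tested genes met it. Cdh16 was 1 of 8 tested markers of tubular epithelium, of which 4 were positive and 4 negative. At an unadjusted p under 0.05, 1 of them was higher and 1, Pax2, was lower. Of 11 tested genes of tubule identity and transport, 2 were positive and 9 negative. Their median was -0.15, and -0.10 without TGFβ+NAM replicate 1.

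To place these values beside the TGFβ response without comparing the TGFβ libraries again, TGFβ-responsive genes were taken from the 6 libraries with SAM. In the fit of all 18 libraries, TGFβ+SAM against SAM called 3824 of 13469 genes (28.4%). Values in this paragraph are from that fit, whose scaling and spread also use the TGFβ and TGFβ+NAM libraries. Of the 7 genes lower in TGFβ+NAM, 6 were lower in TGFβ+SAM than in SAM cells, all but S100g. Of the 4 genes higher in TGFβ+NAM, Ccn1 and Ccn2 were also higher in TGFβ+SAM, and Egr1 and Txnip were lower. Ccn2 averaged 2762 ± 371 CPM in TGFβ+SAM and 214 ± 26.2 CPM in SAM cells, a log2 change of 3.69 ± 0.09 (adjusted p = 6.57e-30). Adh7 averaged 212 ± 17.3 CPM in TGFβ+SAM and 1096 ± 10.8 CPM in SAM cells, a log2 change of -2.37 ± 0.10 (adjusted p = 7.27e-22). Egr1 averaged 59.4 ± 7.72 CPM in TGFβ+SAM and 228 ± 14.2 CPM in SAM cells, a log2 change of -1.94 ± 0.11 (adjusted p = 1.89e-18).

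A fit on the SAM libraries alone gave 451 tested genes that were higher and 640 that were lower with TGFβ by at least 1 log2 unit. In TGFβ+NAM against TGFβ, the 451 genes had a median log2 change of 0.08 and 61.4% were positive; 10.6% were higher at an unadjusted p under 0.05, beside 3.10% of all genes, and 1 of the 4 genes that rose, Ccn2, was among them. The 640 genes had a median of -0.11 and 36.3% were positive; 12.7% were lower at an unadjusted p under 0.05, beside 3.82% of all genes, and 5 of the 7 genes that fell were among them, as was Egr1, which rose. In NAM against control the medians of the same genes were -0.01 and -0.02. There, an unadjusted p under 0.05 was reached by 7.54% of the 451 genes with higher and 6.43% with lower values in NAM cells, beside 2.80% and 2.56% of all genes, so small p-values were also more frequent among them without TGFβ, in both directions. Of the 640 genes, 3.12% were higher and 2.81% lower in NAM against control. Set against the mean of the TGFβ libraries, the median of the 640 genes was -0.10, -0.09 and -0.09 log2 units in the TGFβ+NAM libraries and 0.03, 0.04 and -0.05 in the TGFβ libraries, so the groups did not overlap. That of the 451 genes was 0.11, 0.10 and 0.04 in TGFβ+NAM and 0.00, -0.04 and 0.05 in TGFβ libraries, so they did. Without TGFβ+NAM replicate 1 the medians were 0.05 and -0.10. The treatment tags of SAM replicates 2 and 3 conflict with their titles; with both left out, 417 and 483 genes remained in the sets, with medians of 0.07 and -0.12.

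**Figure D5:**
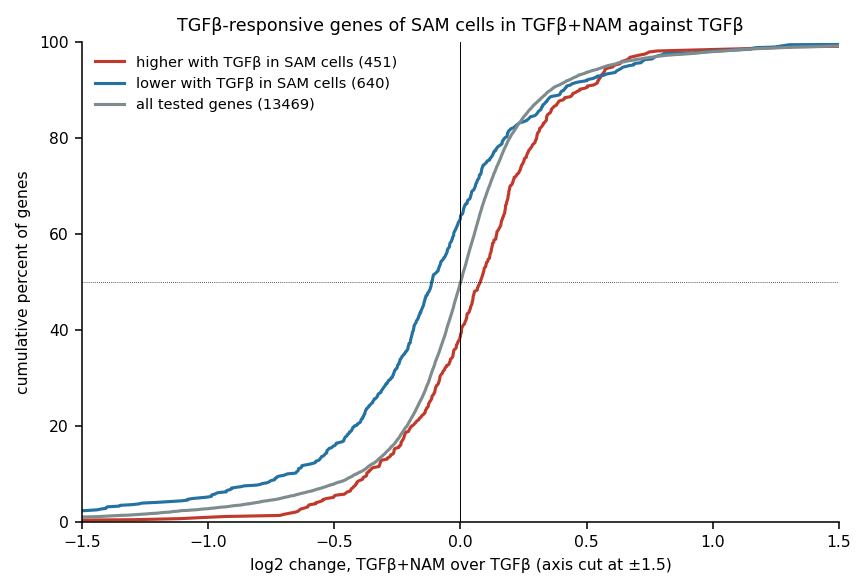
Cumulative percent of genes (y) by log2 change in TGFβ+NAM over TGFβ cells (x, axis cut at ±1.5), for the 451 genes higher and the 640 genes lower with TGFβ in SAM cells and for all 13469 tested genes. The curves cross 50% at 0.08, -0.11 and 0.00.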

How the data were processed

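Polyadenylated RNA was measured with QuantSeq 3′ mRNA FWD libraries in 18 samples, 3 in each of 6 groups taken from the titles. The deposited values are raw counts of reads per gene; STAR and HTSeq are named in the submitters' processing notes, without versions or strand setting. Those notes name GRCh38, whereas the gene identifiers are mouse, so build and release are not settled. Of 55487 identifiers, 55141 matched a symbol in a mouse annotation (GENCODE M21). The 5 special rows were left out; reads outside genes were 22.8% to 28.2% of a library. Without strand, reads of overlapping genes cannot be told apart.

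Tests used edgeR 4.0.16 in R 4.3.3: TMM scaling, filterByExpr with a minimum count of 10, and 1 quasi-likelihood fit of all 18 libraries with a term per group and no block. Two-sided F tests were adjusted by Benjamini-Hochberg over all genes tested and called at 0.05. Fold changes are fitted log2 values ± SE. The SE was derived from the test, as the absolute log2 change divided by the square root of F. An exact permutation of 3 against 3 libraries cannot reach 0.05, so genes were tested only in the model. DESeq2 1.42.0, other scalings, filters, sets of libraries and a replicate block were alternatives. The scripts were tested on simulated counts. No library pair of a group was a duplicate: counts differed beyond sampling noise in each.

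The libraries compared, the gene lists and the tests were chosen with earlier results of these data known. Described were Nnmt and 11 other genes of the study's subject, of which 1 is not reported here; up to 15 genes each way with the largest change among those called with at least 5 CPM and no overlap, filled up by smallest p; up to 10 each way in the fit without TGFβ+NAM replicate 1; up to 4 per list by smallest p, of which a choice is given; and the 10 genes each way in which that replicate deviated most. The deviation of that replicate was ranked only for genes averaging 50 CPM or more in its group. Unnamed predicted genes are not described. Lists are described by counts and medians, with no set test.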

Additional observations from a re-analysis of the deposited data

How the results depend on the processing

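The 11 genes called in TGFβ+NAM against TGFβ became 32 without a low-count filter (9 higher, 23 lower) and 39 with DESeq2 (13 higher, 26 lower), both including the 11, and 20 without TGFβ+NAM replicate 1 and NAM replicate 3 (10 shared). They became 0 when only the 6 compared libraries were fitted (745 at an unadjusted p under 0.05), where fewer libraries estimate the spread. DESeq2-type size factors gave 11, library totals 11, a mean of at least 5 CPM over all 18 libraries 10, and the 12 libraries without SAM 9. That CPM filter kept S100g and Adora1 among the called genes and lost Ccn2 (edgeR adjusted p = 0.0553). Leaving out the SAM libraries with conflicting tags gave 9, an alternative chosen after seeing the data. Leaving out 1 library in turn gave 3 to 14 genes: 3 without TGFβ replicate 2, 5 without TGFβ replicate 3, 6 without TGFβ replicate 1 or TGFβ+NAM replicate 2. NAM against control called 15 genes without a filter and 9 with DESeq2, and otherwise 1. DESeq2 adjusted over 9813 genes in TGFβ+NAM against TGFβ and over 3024 in NAM against control, fewer than the 13469 of edgeR. The interaction called 0 in every alternative run. The replicate block gave 11 genes, 10 of them shared; same-numbered libraries of both groups had deviations correlated at 0.04, -0.01 and 0.00 over all tested genes and at 0.26, 0.08 and -0.14 over the 4168 genes with at least 50 CPM, not all above 0.1 in either, so the numbers were not taken as pairs. The signature medians were 0.13 and -0.17 for genes with a log2 change of at least 2, and 0.0507 to 0.118 and -0.134 to -0.0790 with 1 library left out. With 1 library left out, the estimate of Nnmt ranged from -0.18 to 0.0122 and that of Nampt from -0.11 to 0.10, both reversed without TGFβ replicate 2 and far from the threshold. Calls of S100g and Adora1 rest on 13 to 88 reads a group. The causes were not tested.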
